A study of Homo sapiens with 7 samples.

Results

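Accessible chromatin was described at RUNX1, RUNX1T1 and RUNX3, the RUNX genes with a listed region and the partner that RUNX1 is fused to in this cell line. The regions were those of the pair of deposited lists, pooled, whose nearest gene carries 1 of these 3 symbols. There were 9 such regions of 8815 in all, 5 for RUNX1, 3 for RUNX1T1 and 1 for RUNX3. The cells were Kasumi-1, an established line of acute myeloblastic leukaemia, profiled by ATAC-seq, in which a transposase cuts and tags open DNA. The control group, 4 libraries, had received a scrambled shRNA, although a treatment label calls these samples WT. The other group, 3 libraries, carried a lentiviral shRNA against PHF19, an accessory protein of the Polycomb complex that methylates histone H3 at lysine 27. All cells were placed under puromycin at 2 µg/ml 48 hours after the shRNA, for no less than 24 hours, and each library was made from 10000 cells. Whether libraries of a group were separate cultures is not stated, so p-values by the authors reflect variation among these libraries, possibly technical only.

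RUNX proteins bind DNA through the Runt domain, paired with the subunit CBFB, and switch blood lineage genes on or off. RUNX1 is required for blood stem cells to form and later for myeloid and platelet maturation, and RUNX3 acts mainly in cytotoxic T cells and other lymphocytes. RUNX1 and RUNX3 are each read from a distal and a proximal promoter. In the translocation between chromosomes 8 and 21 that marks this leukaemia, the 5′ part of RUNX1 with its Runt domain is joined to most of RUNX1T1, also called ETO, a corepressor scaffold that is normally little expressed in blood.

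A start site lay under a listed region at RUNX1 and at RUNX3, in both cases the proximal one, so the DNA just before these starts is shown here. The windows are the 250 bases upstream of each start, 5′ to 3′ on the minus strand, from RefSeq promoters of build GRCh38.p14 matched by symbol, with every CpG dinucleotide in capitals. The RUNX1 window is chr21:34888700-34888949 and the RUNX3 window is chr1:24930277-24930526.
RUNX1 proximal promoter: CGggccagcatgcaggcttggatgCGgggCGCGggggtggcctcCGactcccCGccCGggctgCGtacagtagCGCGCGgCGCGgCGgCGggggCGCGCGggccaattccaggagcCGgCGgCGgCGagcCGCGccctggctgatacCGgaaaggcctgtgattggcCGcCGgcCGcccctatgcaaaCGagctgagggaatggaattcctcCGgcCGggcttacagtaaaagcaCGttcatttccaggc
RUNX3 proximal promoter: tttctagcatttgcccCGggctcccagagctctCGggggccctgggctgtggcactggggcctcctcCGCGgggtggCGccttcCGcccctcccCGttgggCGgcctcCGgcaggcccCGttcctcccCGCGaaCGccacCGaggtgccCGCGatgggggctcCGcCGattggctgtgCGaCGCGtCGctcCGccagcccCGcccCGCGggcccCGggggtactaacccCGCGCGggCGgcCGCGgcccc
These starts were matched to the deposited ones by their distance to the 3′ end of the gene, which was 100898 bp in RefSeq and 100889 bp in the deposited annotation for RUNX1, and 30765 and 30768 bp for RUNX3. Both windows were rich in CpG. The RUNX1 window held 32 CpG dinucleotides, 71.2% G and C, and an observed over expected CpG ratio of 1.02, higher than in 92.9% of 35116 promoters. The RUNX3 window held 33 CpG dinucleotides and 78.4% G and C, and its ratio of 0.868 was higher than in 77.8% of promoters. Over all promoters the medians were 11 CpG dinucleotides, 58% G and C and a ratio of 0.558.

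RefSeq also gives the distal RUNX3 promoter, 34.7 kb upstream of the proximal one, shown for contrast because no listed region lay there. Its window is chr1:24965011-24965260, with matches to the RUNX motif TGTGGT in capitals, here in the reverse orientation.
RUNX3 distal promoter: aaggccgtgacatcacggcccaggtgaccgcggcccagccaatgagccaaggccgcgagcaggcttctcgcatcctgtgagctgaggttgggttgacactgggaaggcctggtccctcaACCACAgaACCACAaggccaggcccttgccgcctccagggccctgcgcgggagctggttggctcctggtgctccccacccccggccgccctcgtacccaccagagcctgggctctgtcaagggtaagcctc
The distal window held 2 matches, which begin 131 and 123 bases before the start, and neither proximal window held any. Searched on both strands, TGTGGT occurred in 11.0% of all 35116 promoter windows of this length. The ETS motif GGAAGT (19.5% of windows), the GATA motif AGATAA (9.17%) and the AP-1 motif TGACTCA (4.20%) had no match in any of these 3 windows. The motifs do not overlap one another in these windows, and a missing match says only that these letters are not there.

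All values of single regions below are from the authors' deposited table. A mean is the authors' mean normalised read count of a region in 1 group, carries no SD, and was floored by them at 1 read. A fold is the authors' log2 fold, knockdown over control, and FDR is their false discovery rate. The authors' fold was in every listed region smaller in size than the log2 ratio of their group means, so the ratio of means is given too. The lists hold only regions with an FDR up to 0.05, so every member region had already passed the authors' test and no test is repeated on them. Over the 52675 regions tested, as implied by the deposited FDR values, 16.4% were listed as increased and 0.38% as decreased. How reads were normalised is not given in the sources used here, and the balance of the lists can depend on it. Of the myeloblast markers KIT, CD34, CD33, MPO, ELANE and PRTN3, KIT and CD34 had increased regions. The monocyte markers CD14 and CSF1R did too, while LYZ and the 3 T cell, 3 B cell and 3 erythroid markers looked up had no listed region. These are 2 of 6 myeloblast and 2 of 3 monocyte markers, beside 25.2% of all protein-coding genes with an increased region. No lineage pattern was tested with these few markers. Lists of changed regions cannot show whether a marker was closed.

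The member regions moved in opposite directions by gene. All 5 RUNX1 regions and all 3 RUNX1T1 regions were increased in the knockdown, and the single RUNX3 region was decreased. Over all protein-coding genes, 25.2% had an increased region as nearest gene and 0.818% a decreased one, which is the background for these counts. In bulk cells, a larger share of cells with an open site and a site more open in each cell cannot be told apart. Nor can the intact and the rearranged copies of RUNX1 and RUNX1T1.

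**Figure D1:**
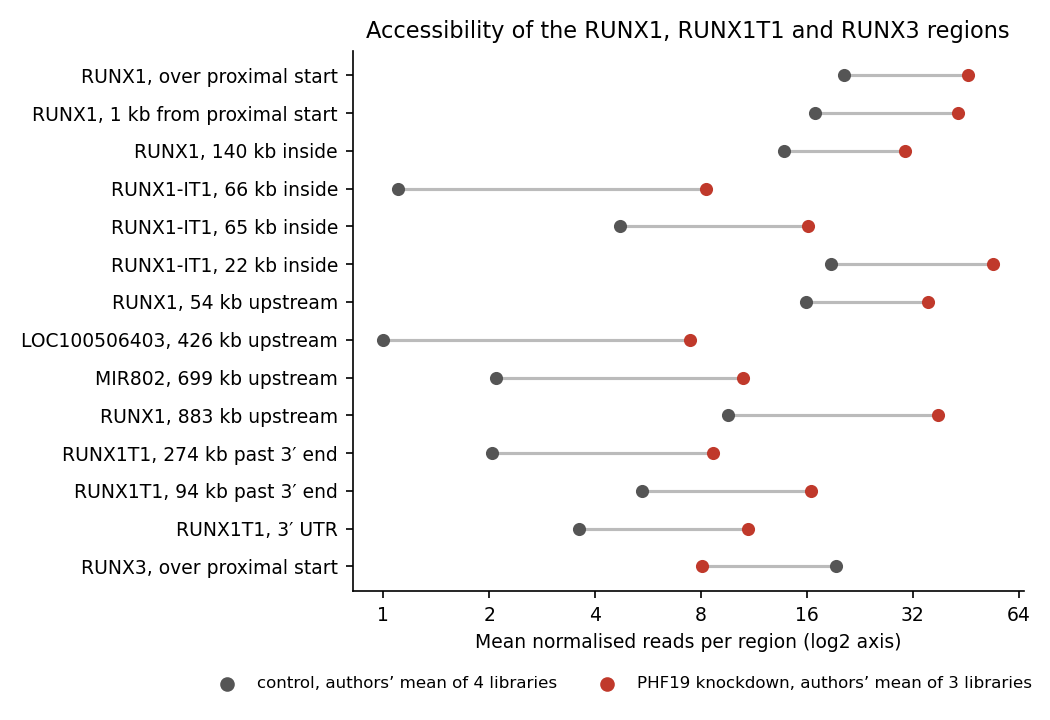
Authors' mean normalised reads (log2 axis) in control and PHF19 knockdown cells for the 9 member regions and the 5 regions inside RUNX1 transcripts with another nearest gene, in genomic order within each gene. Distances marked inside or upstream are to the distal RUNX1 start, and the 2 RUNX1 promoter regions are labelled by the proximal start. The knockdown mean is the higher in every region except that of RUNX3 (8.06 against 19.4 reads).

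RUNX1 gained accessibility at its proximal promoter, which drives the shorter isoforms of the protein. The region over the proximal start (chromosome 21, 36260896 to 36261296, coordinates as deposited and read as hg19) reached from 91 bp inside the gene to 309 bp upstream, and so covers a stretch as long as the promoter window printed above. Its authors' mean was 20.4 reads in the control and 46.0 in the knockdown, a ratio of 2.25. The authors' deposited table gives it a log2 fold of 0.98 and an FDR of 0.00405. A second promoter region lay 721 bp further upstream (36262017 to 36262417), 1.03 kb from the start. It had authors' means of 16.8 reads in the control and 43.0 in the knockdown, a ratio of 2.55, with a log2 fold of 1.11 and an FDR of 0.00130. The neighbouring regions were thus of similar height in both groups, and the region over the start was the more open of the pair in each. An increased promoter region was found at 17.5% of protein-coding genes. Among increased promoter regions as a whole the median log2 fold was 0.89, below both.

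The distal RUNX1 start, from which the longer isoform is made, lies 160.7 kb upstream of the proximal one in the deposited annotation. No listed region covered it, which does not show that it was unchanged. The closest listed regions lay 22.2 kb inside the gene and 53.7 kb upstream of this start.

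Of the 3 RUNX1 regions called intronic in the deposited annotation, 1 lay within the gene as RefSeq spans it. This region (36280685 to 36281321), 637 bp wide and 19.7 kb upstream of the proximal start, had authors' means of 13.8 reads in the control and 30.4 in the knockdown. Its log2 fold was 0.92 (FDR 0.00939), below the median of 1.03 over all increased intronic regions. The other 2 are intronic only because the deposited annotation includes a transcript of 1098 kb, uc002yut.1, that starts 935.4 kb upstream of the distal start. RefSeq gives RUNX1 261.5 kb, the same extent as the deposited transcript from the distal start (261.5 kb). By that extent these 2 regions lay upstream of the gene.

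The nearer of them (36475308 to 36475708), 53.7 kb upstream of the distal start, rose from an authors' mean of 15.9 reads to 35.3, a ratio of 2.22 (log2 fold 0.92, FDR 0.00701). The farther one (37304506 to 37304906) had the largest fold of all member regions. Its authors' mean was 9.56 reads in the control and 37.6 in the knockdown, a ratio of 3.94, with a log2 fold of 1.63 and an FDR of 4.77e-06 in the authors' deposited table. It ranked 138 by fold among the 8615 increased regions. This region lay 882.9 kb upstream of the distal RUNX1 start and 127.9 kb from the start of SETD4, a SET domain methyltransferase gene, so its assignment to RUNX1 rests on the long transcript alone.

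The nearest-gene rule also leaves out regions that lie inside RUNX1. The deposited annotation places 5 more increased regions in introns of RUNX1 transcripts but names another gene as nearest, and with them RUNX1 had 10, a count made after the values were seen. Of these 10 regions, 6 lay between the 3′ end of the gene and its distal start, 3 named for RUNX1 and 3 for RUNX1-IT1, a noncoding transcript within the first part of RUNX1. The other 4 lay upstream of the distal start.

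A RUNX1-IT1 region 22.2 kb inside the gene from the distal start (36399029 to 36399429) had the highest mean of the 10 in the knockdown and over all libraries, whereas in the control the region over the proximal start was higher. Its authors' mean was 18.7 reads in the control and 54.1 in the knockdown, a ratio of 2.89, with a log2 fold of 1.31 and an FDR of 3.53e-05 in the authors' deposited table. Its mean over all libraries was higher than in 97.1% of increased intronic regions. The intron between the promoters of RUNX1 is known to hold an enhancer active in blood stem cells, and whether this region is that enhancer was not tested.

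A pair of weaker regions stood 173 bp apart, 65.9 and 65.3 kb inside the gene. In the control the first (36355364 to 36355764) had an authors' mean of 1.10 reads, near the floor of 1 read. In the knockdown it had 8.26 reads (log2 fold 1.13, FDR 0.0155). The second (36355937 to 36356337) rose from 4.71 reads to 16.1 by the authors' means (log2 fold 1.22, FDR 0.00507). Both were far less open than the proximal promoter in either group.

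The remaining pair lay inside the long transcript only. The region nearest to LOC100506403, an uncharacterised locus, was 425.6 kb upstream of the distal start (36847271 to 36847671). Its authors' mean was at the floor of 1 read in the control and 7.44 reads in the knockdown (log2 fold 1.12, FDR 0.0155), and no ratio is given against the floor. The region nearest to the microRNA gene MIR802, 699.3 kb upstream (37120937 to 37121337), had authors' means of 2.09 and 10.5 reads (log2 fold 1.26, FDR 0.00800).

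**Figure D2:**
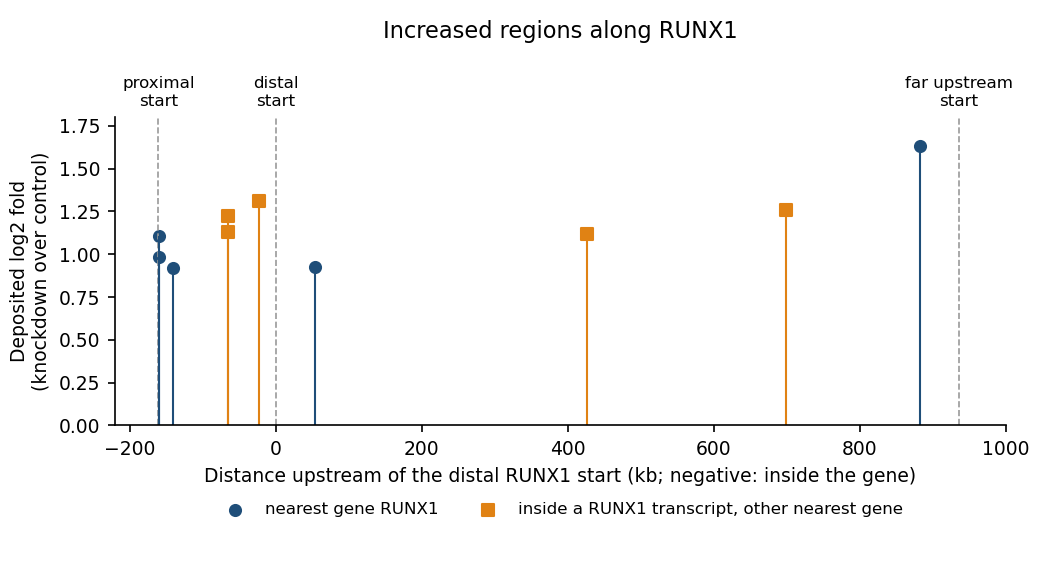
Deposited log2 fold (knockdown over control) of the 10 increased regions along RUNX1 against their distance upstream of the distal start in kb, with dashed lines at the 3 starts of the deposited annotation. The largest fold, 1.63, sits 883 kb upstream of the distal start, near the start of the long transcript, and the folds at the proximal start are 0.98 and 1.11.

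RUNX1T1, which supplies the corepressor part of the fusion protein, had increased regions at its 3′ end and beyond it and none listed at a promoter. By the authors' means these regions were less open than any RUNX1 region named by symbol, with 2.04 to 5.45 reads in the control and 8.66 to 16.5 in the knockdown. The region in the 3′ UTR (chromosome 8, 92968237 to 92968637) lay 1042 bp from the deposited end of the gene. It rose from 3.61 reads to 10.9, a ratio of 3.02, with a log2 fold of 0.91. Its FDR of 0.0485 in the authors' deposited table was the closest to 0.05 of all member regions. This 3′ end is part of the fused gene in this leukaemia.

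The 2 distal RUNX1T1 regions lay past the 3′ end, not before the promoter. The nearer (92872423 to 92872823), 94.4 kb past the end, had authors' means of 5.45 reads in the control and 16.5 in the knockdown (ratio 3.02, log2 fold 1.03, FDR 0.0183). The farther (92692872 to 92693272), 273.9 kb past the end, had 2.04 and 8.66 reads (ratio 4.24, log2 fold 1.02, FDR 0.0322). The deposited distances of 131.3 and 310.8 kb count from the start of a short transcript of 36.9 kb, whereas RefSeq gives RUNX1T1 148.4 kb. None of the 3 RUNX1T1 regions reached an FDR of 0.01, which all 5 RUNX1 regions did. Of all 8615 increased regions 45.9% reached it. By class these were 54.4% of promoter, 35.6% of intronic, 38.7% of distal intergenic and 29.7% of UTR regions.

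RUNX3 lost accessibility over its proximal start, the CpG-rich promoter printed above. The region (chromosome 1, 25256689 to 25257089) reached from 81 bp inside the gene to 319 bp upstream of the start, nearly the same placement as the RUNX1 region over its own proximal start. Its authors' mean was 19.4 reads in the control and 8.06 in the knockdown, a knockdown over control ratio of 0.416. The authors' deposited table gives a log2 fold of −0.91 and an FDR of 0.0277. Of all protein-coding genes, 0.259% had a decreased promoter region.

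In the control the RUNX3 and RUNX1 proximal starts were about equally open by the authors' means, at 19.4 and 20.4 reads. In the knockdown they stood at 8.06 and 46.0 reads. The widths are the same, 401 bp, but no value per library was analysed here, so no error can be put on this contrast, and the difference between these folds was not tested. Among the 20 decreased regions on chromosome 1 the RUNX3 region had the highest mean over all libraries, 14.5 reads. It ranked 6 by that mean among the 20 decreased regions that cover a start site. No listed region lay within 316.8 kb upstream of it or 738.9 kb downstream.

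Set among all listed regions, the member folds were mostly ordinary. The median log2 fold of the 5 RUNX1 regions was 0.98, that of the 3 RUNX1T1 regions 1.02, and that of all 8615 increased regions 0.97. The 5 regions inside RUNX1 with another nearest gene, all intronic as deposited, had a median of 1.22, beside 1.03 over all increased intronic regions. The RUNX3 fold of −0.91 lay beside a median of −0.96 over the 200 decreased regions. The largest RUNX1 fold was above 98.4% of increased regions, the RUNX1-IT1 region 22.2 kb inside the gene above 91.1%, and the RUNX1T1 UTR region above 37.2%.

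The order of the member genes depends on which deposited value is read. By the authors' log2 fold the RUNX1 promoter regions (0.98 and 1.11) and the RUNX1T1 regions (0.91 to 1.03) overlapped. By the ratio of the authors' means the RUNX1T1 regions (3.02 to 4.24) stood above the RUNX1 promoter regions (2.25 and 2.55). The farthest upstream RUNX1 region had a larger log2 fold (1.63) than any of them, and its ratio of 3.94 lay within the RUNX1T1 range. The deposited log2 fold was 48.7 to 64.3% of the log2 ratio of means at the RUNX1T1 regions, which held few reads, and 81.9 to 83.7% at the RUNX1 promoter. Without values per library, no neighbours in this order can be said to differ.

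**Figure D3:**
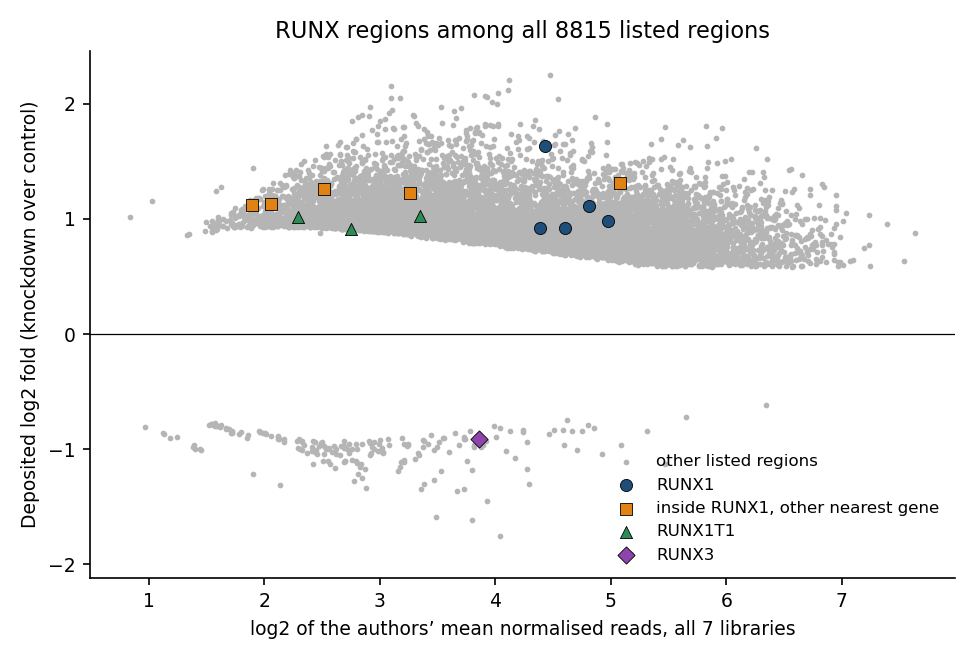
Deposited log2 fold (knockdown over control) against the log2 of the authors' mean normalised reads over all 7 libraries for the 8815 listed regions in grey, with the RUNX regions in colour. The RUNX1T1 regions and 4 of the 5 regions inside RUNX1 with another nearest gene lie at low means, and RUNX3 (−0.91) is in the lower band of decreased regions.

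Genes most like each member were sought among protein-coding genes with as many increased and decreased regions, by the root mean square difference of their sorted deposited log2 folds. Of 53 genes with 5 increased regions, ROBO1, an axon guidance receptor gene, was closest to RUNX1 (0.05 log2 units), followed by NAV3 and CEP44 (0.07 each). Of 294 genes with 3 increased regions, ITGA1, an integrin subunit gene, and NAMPT, which encodes an enzyme of NAD synthesis, were closest to RUNX1T1 (0.01 each), and then the deubiquitinase gene USP13 (0.02). For RUNX3 the measure rests on a single fold, and TRERF1, TMEM161A and RGS3 had the nearest of 131. The measure covers 1 contrast and no other condition.

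Neighbouring genes showed increases around all 3 members. Within 1 Mb of the RUNX1 regions there were 8 further listed regions, all increased, with log2 folds of 0.68 to 1.11. They included 3 at MORC3, a chromatin protein gene, with authors' means of 31.3 and 71.4 reads over its start (1.04), and the promoter of RCAN1, an inhibitor of calcineurin (1.002). The promoter of SETD4 was at the low end (0.68). Chromosome 21 as a whole held 174 increased regions and 1 decreased, with a median log2 fold of 0.997 among the increased ones. Per 100 protein-coding genes, chromosome 21 held 72.8 increased regions, beside 43.0 over all chromosomes. The 10 RUNX1 regions, 4 of them upstream of the distal start and so outside the RefSeq extent, made up 5.71% of the listed regions of chromosome 21.

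Around RUNX1T1 there were 3 further increased regions within 1 Mb, at OTUD6B, FLJ46284 and TRIQK (0.94 to 1.14). Chromosome 8 held 352 increased and 3 decreased regions. Around RUNX3 the 4 further regions were all increased, at IFNLR1, RSRP1, MAN1C1 and SRSF10 (0.79 to 1.005), so the RUNX3 region was the decreased one of the 5 listed in its neighbourhood. Chromosome 1 held 543 increased and 20 decreased regions.

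The other genes of the RUNX1 network were taken from lists chosen with earlier results of these data known. Of the core binding factor genes, RUNX2, the bone regulator, and CBFB, the shared partner subunit, had no listed region, and neither did CBFA2T2 or CBFA2T3, the other ETO family genes. A gene without a listed region is not shown to be unchanged. In what follows, a gene that rose or fell is one nearest to an increased or a decreased region, at any distance. Expression was not read here. Of 92 list genes other than the 3 members, 32 (34.8%) had an increased region and 2 a decreased one, beside 25.2% and 0.818% of all protein-coding genes. The median of their largest log2 folds was 0.94, and that of all protein-coding genes with an increased region was 0.97.

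Of 13 factors that bind or bridge DNA with the fusion, 5 rose (38.5%, beside 25.2% of all protein-coding genes) and 1 fell in the authors' deposited table. Of the 5, 1 had a region at an FDR of at most 0.01 and 1 at a log2 fold of 1 or more. The share of 25.2% does not apply to counts at these cutoffs, here or in the lists below, and no share at the same cutoffs is given. The ETS factor ERG, also on chromosome 21, had 5 increased intronic regions (up to 1.05), FLI1 had 2 (up to 0.98), and LMO2, a bridging protein of blood progenitors, had 1 (0.86). The helix-loop-helix genes LYL1 (0.74) and TCF3 (0.68) rose at their promoters. LDB1, which links LMO2 complexes, fell at a promoter region 2.50 kb from its start (−0.96, authors' means of 19.0 reads in the control and 7.47 in the knockdown).

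Corepressors and histone deacetylases that ETO binds had increased regions at 4 of 9 genes (44.4%, beside 25.2% of all protein-coding genes), and each of the 4 had one at its promoter, beside 17.5%. At an FDR of at most 0.01 there were 2 and at a log2 fold of 1 or more 1. HDAC2, a histone deacetylase, was nearest to the region with the largest fold (1.23), 9.73 kb upstream of its start in an intron of a transcript given with no gene, with authors' means of 2.76 and 12.1 reads, and had 0.67 at its promoter. TBL1XR1, a subunit of a corepressor complex, rose at an intronic region (0.89) and at its promoter (0.74), and the scaffold gene SIN3A rose at its promoter (0.76) in the authors' deposited table. NCOR1, HDAC1 and HDAC3 had no listed region. Of 11 coactivators and modifiers of RUNX1, 7 rose (63.6%, beside 25.2% of all protein-coding genes) and none fell, and 2 of the 7 were left at an FDR of at most 0.01 or at a log2 fold of 1 or more. Among the 7 were the kinase gene HIPK2 (1.15), the acetyltransferase genes KAT6A (1.04) and CREBBP (0.93), and the arginine methyltransferase gene PRMT6 (0.92). HIPK2 lies on chromosome 7, and KAT6A on chromosome 8.

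Of 26 RUNX1 target genes in blood, 6 rose and 1 fell, and 2 of the 6 had a log2 fold of 1 or more. An increased promoter region was found at 3 of the 26, beside 17.5% of all protein-coding genes. BCL2, which blocks apoptosis (1.22), and the cell-cycle kinase gene CDK6 (1.13) had the largest folds, followed by CD34 (0.98) and the receptor gene CSF1R (0.89). MYL9, a myosin light chain gene that RUNX1 controls in platelets, was nearest to a decreased region 8.82 kb upstream of its start (−0.98), which the annotation places in an intron of a transcript given with no gene and where the authors' mean was 4.57 reads in the control and at the floor in the knockdown. SPI1, CEBPA, MPO and GFI1 were among the 19 with no listed region. These 6 of 26 genes are 23.1%, beside 25.2% of all protein-coding genes.

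Of 21 genes reported as responsive to the fusion, 7 rose (33.3%, beside 25.2% of all protein-coding genes) and none fell, and 4 had a log2 fold of 1 or more. The receptor gene TGFBR2 was nearest to 8 increased regions, the farthest 598.5 kb from its start. Its largest fold (1.54) was at an intronic region 40.0 kb from the start. RASSF2, a tumour suppressor gene, rose at its promoter (1.12), and the adaptor gene LAT2 (1.05) and SIPA1L2 (1.03) rose at intronic regions. Of 15 partners and targets of RUNX3 in lymphocytes, 3 rose (20.0%, beside 25.2%) and none fell in the authors' deposited table. Of the 3, 1 had a log2 fold of 1 or more. An increased promoter region was found at 1 of the 15, beside 17.5% of all protein-coding genes. EOMES, a T-box factor of cytotoxic cells, was nearest to 3 distal intergenic regions, 48.6 to 254.2 kb from its start. The farthest of them had the largest fold (1.83). GZMB, which encodes granzyme B, was nearest to 1 such region, 28.5 kb from its start (0.97), and BCL2L11, a death-promoting gene, rose at its promoter (0.93). CD4 and CD8A, which RUNX3 silences and activates in T cells, had no listed region.

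**Figure D4:**
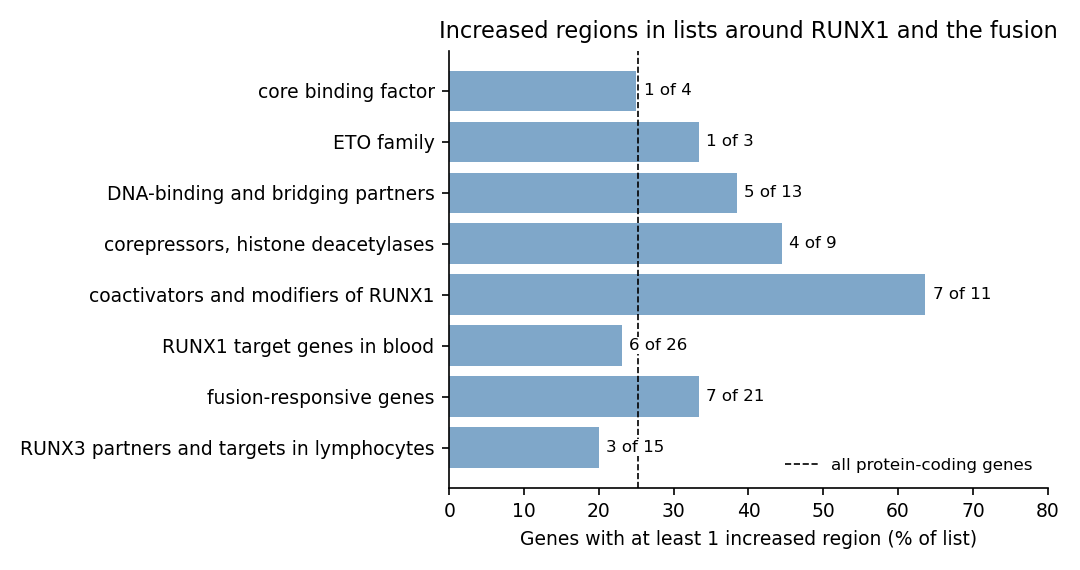
Percent of the genes of each list with at least 1 increased region (bars, with counts), beside all protein-coding genes (dashed line, 25.2%). Shares run from 20.0% for RUNX3 partners and targets to 63.6% (7 of 11) for coactivators and modifiers of RUNX1, and lists share some genes.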

How the data were processed

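ATAC-seq of Kasumi-1 cells was summarised by the authors as lists of increased and decreased regions. Group means were deposited on a log2 scale of normalised reads, beside a log2 fold, a p-value and an FDR, per the file headers. The tools MACS2 2.2.6, Bowtie2 2.4.1, deepTools 1.5.12 and Picard 2.2.4 are listed without a role, per the submitters' processing notes. How reads were normalised or shifted for the transposase, and which test was used, is not given in the sources used here. Column KP was read as knockdown and KC as control: a weight of 3 to 4 libraries on the group means returned the overall mean, within 0.001 of that weight, in 98.5% of regions, and KP was the higher in all 8615 increased regions.

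The notes name hg38, but for only 0.228% of 8789 regions with a matched gene is the deposited gene start or end that of GRCh38.p14. This compares the deposited gene annotation and not the regions themselves. Of the 8615 increased regions, 2982 cover a start site of that annotation. Coordinates are printed as deposited and read as hg19, and the build of the regions was not tested otherwise. Group means were raised as powers of 2 to reads. Member regions were chosen by symbol, and members and lists were chosen with earlier results of these data known. Every member region is named. Up to 4 genes per list and 4 neighbouring regions per member with the largest absolute fold, and every list gene with a decreased region, were eligible for naming. Genes with no listed region and a few others (SETD4, TCF3, the RUNX1-IT1, LOC100506403 and MIR802 regions) are named as well, chosen after their values were seen. No test was run, since no value per library was analysed here, and read depth per library is unknown. Motif counts and the number of tests implied by the FDR were tested on simulated data. Alternatives were an FDR of 0.01, an absolute log2 fold of 1, a mean of 10 reads, promoter regions only or within 1000 bp of a start, and the difference of group means. Python 3.11.15, pandas 2.3.3, numpy 2.4.6 and matplotlib 3.10.9 were used.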

Additional observations from a re-analysis of the deposited data

How the results depend on the processing

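The count of 8 increased member regions was 5 at an FDR of at most 0.01, 4 where the absolute log2 fold was 1 or more, 6 with an overall mean of at least 10 reads and 13 when regions inside a RUNX1 transcript were added (this last chosen after seeing the data). The 1 decreased region, that of RUNX3, became 0 at either stricter threshold and remained with at least 10 reads. The 3 promoter regions became 2 within 1000 bp of a start or over it, the latter chosen after seeing the data. With the difference of group means all 9 member regions kept their direction. For genes with an increased region, promoter regions only gave 0 in the ETO family (from 1) and 3 among bridging partners (from 5). They gave 5 coactivators (from 7), 3 RUNX1 targets (from 6), 5 fusion-responsive genes (from 7) and 1 RUNX3 partner (from 3). Over all protein-coding genes 17.5% had an increased promoter region. An FDR of at most 0.01 gave 0 in the ETO family, 1 bridging partner, 2 corepressors (from 4) and 2 coactivators (from 7). It also gave 4 RUNX1 targets (from 6), 5 fusion-responsive genes (from 7) and 2 RUNX3 partners (from 3). An absolute log2 fold of 1 or more gave 1 bridging partner, 1 corepressor, 2 coactivators, 2 RUNX1 targets, 4 fusion-responsive genes (from 7) and 1 RUNX3 partner. Each stricter setting keeps fewer regions by construction, and no share of all protein-coding genes is given at the same FDR or fold. No paired analysis was possible because the deposited lists hold group means only, and for the same reason no replicate was left out. Low means limit the RUNX1T1 regions, at 4.88 to 10.2 reads over all libraries.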

Other observations

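Counted by nearest gene, RUNX1 had 5 increased regions, and 62 protein-coding genes had more. Counted by nearest gene or by lying inside a transcript of the gene, RUNX1 had 10, and 2 genes had more, FNDC3B with 14 and IGF1R, the receptor for insulin-like growth factor, with 11. CDK6, ETV1, PDE4D and TRIO were among the 12 genes with 10, RUNX1 included. This count was made after the values were seen, is not corrected for gene length, and for RUNX1 includes the regions inside the transcript of 1098 kb that exceeds the RefSeq extent of the gene.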
